A study of Arabidopsis thaliana with 11 samples.

Results

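Xyloglucan endotransglucosylase/hydrolases (XTH) are the cell wall enzymes that cut and rejoin xyloglucan, and their transcripts were followed here gene by gene in Arabidopsis seedlings that received the peptide PSY1 or lacked its receptor PSY1R. The family was taken as the 33 loci named XTH1 to XTH33, out of 25433 loci with a probe on the array. Probes were assigned to loci by their RefSeq transcripts, and all 33 loci had at least 1 probe, 42 probes in total. The choice followed the family names and used no measured value, but it was made with earlier results of these data known. All plants were whole Col-0 seedlings grown for one week in liquid medium on a shaker under continuous light. The 4 groups were psy1r + PSY1 (receptor knockout, 10 nM PSY1 for 4 h, 2 arrays, replicates 1 and 3), psy1r (the same knockout without peptide, 3 arrays), WT + PSY1 (wild type, 10 nM PSY1 for 4 h, 3 arrays) and WT (wild type without peptide, 3 arrays). The 2 arrays of psy1r + PSY1 are titled psy1+PSY1 and were placed in this group by their genotype label, which names the psy1r knockout. The knockout is a single mutant line, and nothing in the labels or methods separates roots from shoots. Each of the 11 arrays held the RNA of 1 sample, read in one color.

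Xyloglucan is the main hemicellulose that coats and tethers cellulose in the primary wall of Arabidopsis. Most XTH enzymes are endotransglucosylases, which cut a xyloglucan chain and join the new end to another chain, so that the wall can extend without losing its links. A few members act as hydrolases and shorten the chain instead. The genes are expressed in different organs and are known to respond to touch, shade, auxin and brassinosteroids. PSY1 is a secreted tyrosine-sulfated glycopeptide that promotes cell expansion, and PSY1R is a leucine-rich repeat receptor kinase.

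Values are given as the log2 of the processed signal relative to the 75th percentile of the array, so that 0 is the level of the 75th percentile and a difference of 1 between groups is a 2-fold change. A level on this scale is read only within one probe, because probes differ in brightness. For PSY1R, the values were -7.55 and -4.76 in psy1r + PSY1, -6.60, -6.55 and -8.59 in psy1r, -1.52, -1.72 and -1.49 in WT + PSY1 and -1.25, -1.22 and -1.90 in WT. The mutant arrays were thus all below the wild type arrays, and the probe was well above background on 1 array of psy1r + PSY1 and 1 of psy1r. Where the probe lies relative to the mutation is not given in the sources used here. PSY1R passed the limma test in psy1r against WT (adjusted p = 0.0104, or 0.0367 when slides were blocked) and in psy1r + PSY1 against WT + PSY1 (adjusted p = 0.0344), where blocking by slide ended the call (adjusted p = 0.0826). No size is given, since most mutant arrays did not measure the gene above background. An array had 72.4% to 81.8% of its probes well above background and 0 saturated spots.

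The replicate number of an array is also its slide, and replicate 3 stood apart from replicates 1 and 2 in WT and in psy1r. Over all loci the WT arrays 1 and 2 lay 0.07 apart (median of the absolute log2 differences), whereas array 3 differed from them by 0.31 and 0.29. Over the XTH genes the same distances were 0.09, 0.78 and 0.77. Replicate 3 of psy1r differed from the others by 0.67 and 0.51 over the XTH genes, against 0.13 between replicates 1 and 2. The 3 arrays of WT + PSY1 lay within 0.08 to 0.10 of each other over the XTH genes, and the 2 arrays of psy1r + PSY1 were 0.34 apart. The methods state independent biological samples. The adjusted p-values below measure only the spread between these arrays, and slide 3 was left out as an alternative for the whole fit.

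Tissue markers moved with the same arrays. One list held 6 markers of root hairs and roots, called root markers below, which do not separate root hairs from the rest of the root. Their summed signal, in multiples of the 75th percentile of the array, was 0.768 and 0.751 in psy1r + PSY1, 1.18, 1.19 and 0.334 in psy1r, 1.20, 1.23 and 1.33 in WT + PSY1 and 1.66, 1.73 and 0.724 in WT. Replicate 3 was the lowest array of both psy1r and WT, and of the 6 root markers 4 were well above background on replicate 3 of psy1r and all 6 elsewhere. The sum of 14 seed storage and oil body markers was 28.8 on replicate 3 of psy1r + PSY1 and at most 1.55 on the other 10 arrays. Replicate 3 also had the highest seed marker sum of WT, with 0.40, 0.43 and 1.55 on replicates 1, 2 and 3. The same held in psy1r, with 0.81, 0.92 and 1.48. The 6 leaf markers were well above background everywhere, with sums from 987 to 1274. The part of these tissues in the XTH values was not tested, and in whole seedlings fewer cells of a type and less RNA per cell cannot be told apart.

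Of the 33 loci, 27 were well above background on all 11 arrays and 3 on none. Those 3 were XTH2, XTH3 and XTH29, which were not tested. XTH1, XTH12 and XTH26 were well above background on 3, 6 and 10 arrays. For XTH1 these were 2 arrays of WT + PSY1 and 1 of WT, and none of psy1r + PSY1 or psy1r. For XTH12, named among the genes of the root, they were all 3 of WT + PSY1, 2 of WT, 1 of psy1r and 0 of psy1r + PSY1. The 30 tested loci entered one limma fit of the 4 groups with all 36364 tested probes, and a gene was called when its adjusted p was below 0.05 and its change above 2-fold.

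No XTH gene was called in any of the 5 comparisons. Over all 21920 tested loci, limma called 1.09% in psy1r + PSY1 against WT + PSY1, 0.00912% in psy1r + PSY1 against psy1r, 0.885% in psy1r against WT and 0.219% in WT + PSY1 against WT, while 0.0593% were called for the difference between the PSY1 responses of the 2 genotypes (interaction). With rates this low, a family of 30 would hold few calls or none. At an unadjusted p below 0.05, 5 XTH genes were higher and 1 lower in psy1r + PSY1 against WT + PSY1, where 9.34% and 12.3% of all loci were. The counts were 1 higher and 0 lower in psy1r + PSY1 against psy1r (2.34% and 3.1% of all loci), 2 higher and 2 lower in psy1r against WT (7.73% and 9.77%), 5 higher and 3 lower in WT + PSY1 against WT (11.6% and 10.7%) and 2 higher and 2 lower in the interaction (5.82% and 6.51%). The XTH values were less precise than those of other genes, with a median standard error of 0.28 in the comparisons between 3 and 3 arrays, against 0.18 over all loci. With the slide as a block in the fit, 0 XTH genes were called in each comparison as well.

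**Figure D1:**
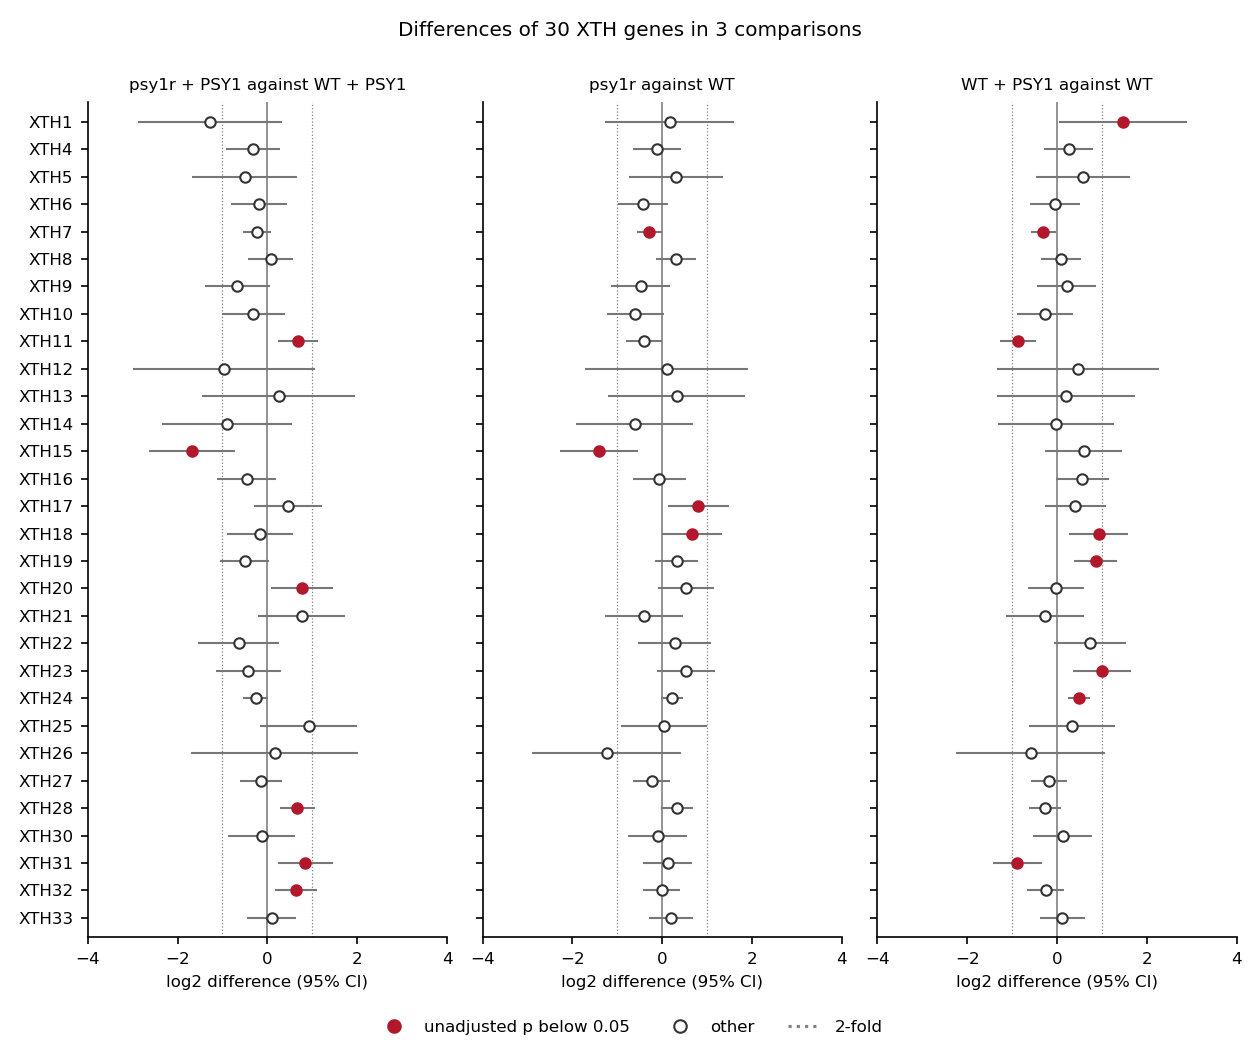
Log2 differences of the 30 tested XTH genes with 95% confidence intervals from limma in psy1r + PSY1 against WT + PSY1, psy1r against WT and WT + PSY1 against WT (horizontal axis, positive means higher in the group named first). Filled points have an unadjusted p below 0.05 and dotted lines mark 2-fold; no gene passed the adjusted threshold, and XTH15 at -1.68 and -1.41 lies farthest from 0 among the genes that every array measured above background.

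The comparison of WT + PSY1 with WT asks how wild type seedlings respond to the peptide. The XTH genes had a median difference of 0.16, against -0.03 over all loci, with 18 genes above 0 and 12 below. Without slide 3 the XTH median turned to -0.11, with 13 genes above 0 and 17 below. Among the 27 genes measured above background on every array, the 5 with the highest values relative to WT were members of the large XTH12 to XTH26 subgroup. In that subgroup the median was 0.47, and 0.14 without slide 3, and the arrays did not overlap for 7 of 15 genes, all 7 higher in WT + PSY1. Over the 30 genes the arrays were apart for 8 genes higher (XTH9, XTH15, XTH16, XTH18, XTH19, XTH22, XTH23 and XTH24) and 4 lower (XTH7, XTH11, XTH28 and XTH31), where 22.8% and 24.4% of all loci were apart. Both directions together, such genes were a smaller share of the family than of all loci. For XTH9 the second probe went the other way, at -0.05 against 0.21.

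XTH24 (AT4G30270), also known as MERI5B, XTH18 (AT4G30280) and XTH19 (AT4G30290) are neighbours on the chromosome, and all 3 had higher values after PSY1. XTH24 had values of 4.53, 4.51 and 4.53 in WT + PSY1, against 4.09, 4.06 and 3.96 in WT. XTH18 had values of 5.35, 5.25 and 5.26 in WT + PSY1, against 4.82, 4.68 and 3.57 in WT. XTH19 had values of -1.23, -1.16 and -1.13 in WT + PSY1, against -1.74, -1.78 and -2.57 in WT. No array of WT reached an array of WT + PSY1 in the 3 genes, and in XTH18 and XTH19 the lowest WT array by far was replicate 3. XTH18 and XTH19 belong to a group of closely related enzymes expressed in the root, with XTH17 and XTH20. The differences were 0.49 ± 0.11 for XTH24 (SE, n = 3 and 3, adjusted p = 0.0726), 0.93 ± 0.29 for XTH18 (adjusted p = 0.134) and 0.86 ± 0.21 for XTH19 (adjusted p = 0.0901). All 5 probes of XTH24 gave a difference between 0.48 and 0.60. Whether the related sequences of XTH18 and XTH19 share probe signal could not be checked, as no probe sequences were used here.

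XTH23 and XTH22 showed a similar arrangement. XTH22 (AT5G57560) is TCH4, the touch-induced endotransglucosylase. XTH23 (AT4G25810, XTR6) had values of 3.91, 3.90 and 3.76 in WT + PSY1, against 3.28, 3.19 and 2.09 in WT, a difference of 1.01 ± 0.28 (adjusted p = 0.111). XTH22 had values of 4.37, 4.34 and 4.33 in WT + PSY1, against 4.07, 4.01 and 2.78 in WT, a difference of 0.73 ± 0.35 (adjusted p = 0.278). In both genes replicate 3 of WT was more than 1 log2 unit below the other WT arrays, and the fit's mean difference was larger than the difference on slides 1 and 2, which was 0.64 and 0.71 for XTH23 and 0.30 and 0.33 for XTH22. XTH15 and XTH16 had arrays apart as well, with differences of 0.59 ± 0.38 and 0.57 ± 0.26 (adjusted p = 0.397 and 0.252), while the second XTH15 probe was at 0.00. For XTH1 (AT4G13080) the values were -7.44, -6.29 and -6.18 in WT + PSY1, against -8.78, -7.38 and -8.16 in WT, where 2 arrays of WT + PSY1 and 1 of WT were well above background and the 2 groups overlapped, so that no size is given (adjusted p = 0.23).

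XTH11 and XTH31 had the lowest values relative to WT. XTH11 (AT3G48580), a member of the XTH1 to XTH11 subgroup, had values of -3.85, -3.99 and -3.82 in WT + PSY1, against -3.02, -3.03 and -3.03 in WT. This was the smallest adjusted p of the family, 0.0656, with a difference of -0.86 ± 0.18. XTH31 (AT3G44990), an enzyme with hydrolase activity towards xyloglucan, had values of 2.47, 2.53 and 2.54 in WT + PSY1, against 3.17, 3.13 and 3.89 in WT, with a difference of -0.88 ± 0.24 (adjusted p = 0.105). In both genes all treated arrays were below all untreated arrays, and on slides 1, 2 and 3 the difference was -0.83, -0.96 and -0.79 for XTH11 and -0.70, -0.59 and -1.35 for XTH31. XTH7 had a smaller difference of -0.31 ± 0.12 (adjusted p = 0.2) that was about the same on the 3 slides, from -0.36 to -0.28. XTH28 (AT1G14720), known from the growth of stamen filaments, was at -0.28 ± 0.16 (adjusted p = 0.343) and XTH26 (AT4G28850), a gene of root hairs, at -0.59 ± 0.73 (adjusted p = 0.677).

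**Figure D2:**
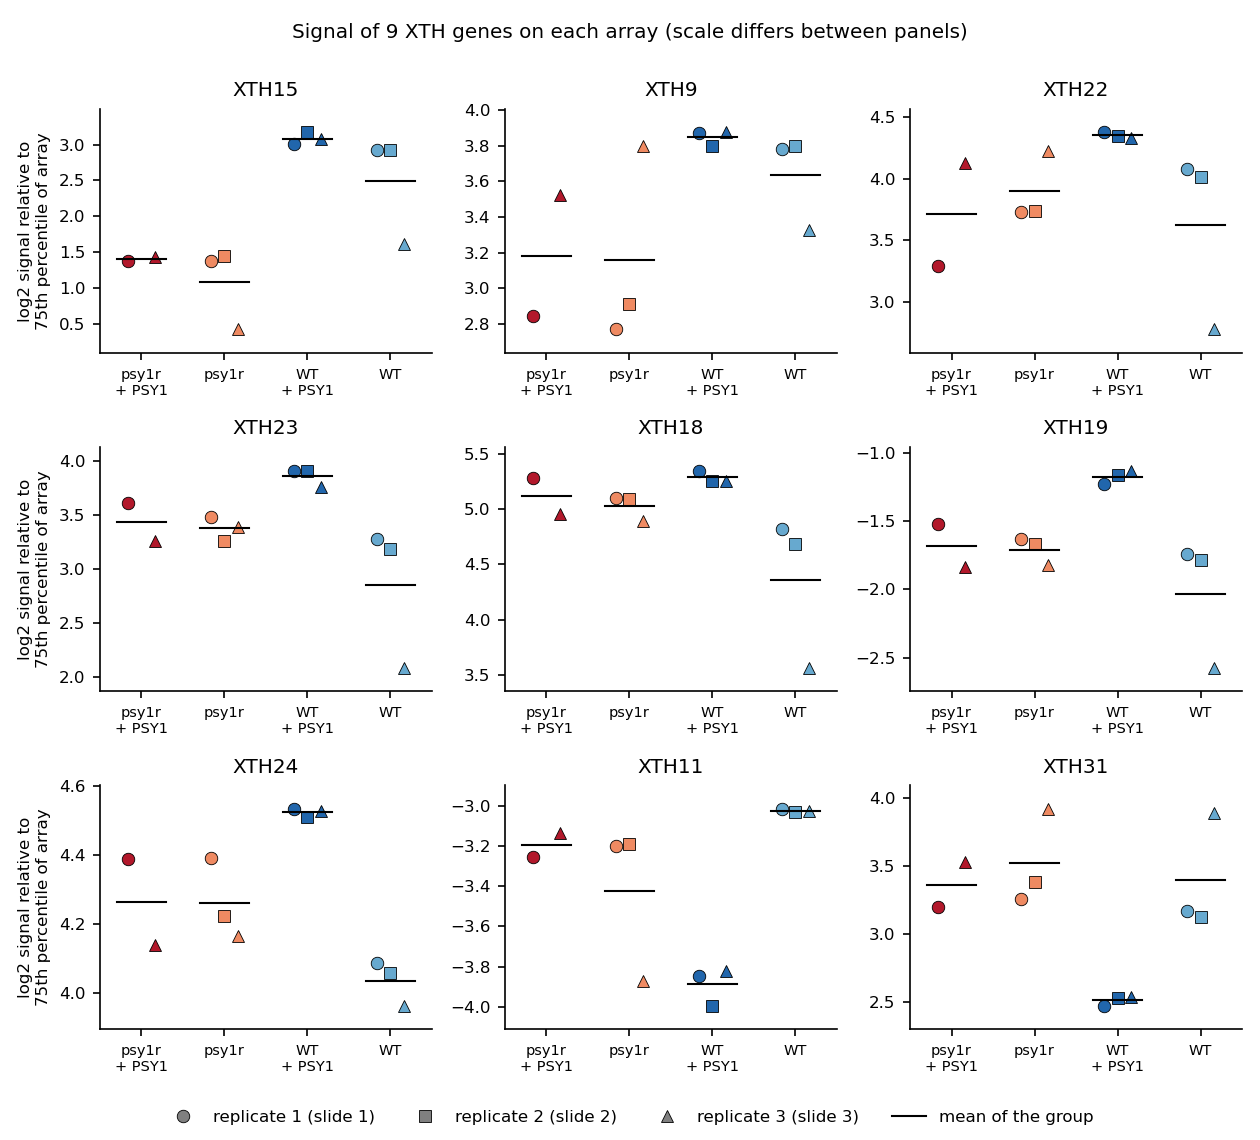
Log2 signal relative to the 75th percentile of the array (vertical axis, scale set for each gene) of 9 XTH genes on the arrays of psy1r + PSY1, psy1r, WT + PSY1 and WT. Each symbol is 1 array, its shape gives the replicate number and slide, and the line is the group mean; in XTH22, XTH23 and XTH18 the WT triangle lies more than 1 below the other WT symbols, while in XTH24 and XTH11 the WT and WT + PSY1 symbols form separate tight groups.

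The size of the PSY1 differences in wild type depended on the slide. The median difference of the 30 genes between WT + PSY1 and WT was -0.08 on slide 1, -0.03 on slide 2 and 0.68 on slide 3. Over all loci the corresponding medians were -0.03, -0.03 and 0.01. On slide 3, 19 of the 30 genes were more than 0.5 higher in WT + PSY1, against 6 on slide 1. Across the 3 slides, 11 genes were higher on every slide and 6 lower on every slide, where 27.8% and 31.3% of all loci were. The median of the family was above 0 on slide 3 only. The higher genes named above (XTH24, XTH18, XTH19, XTH23 and XTH22) were higher on each slide. This follows from their arrays not overlapping and adds no further evidence.

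**Figure D3:**
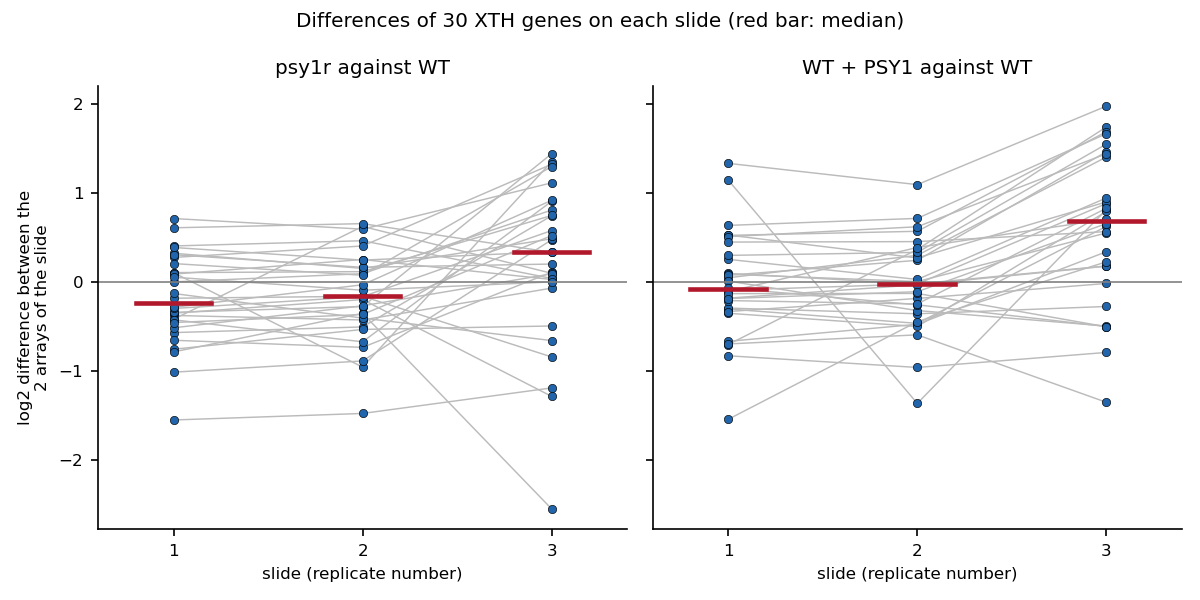
Log2 difference between the 2 arrays of a slide (vertical axis) for the 30 tested XTH genes in psy1r against WT and WT + PSY1 against WT, on slides 1, 2 and 3 (horizontal axis). Points are genes, grey lines join a gene, and red bars are medians, which stand at -0.23, -0.16 and 0.34 for psy1r against WT and at -0.08, -0.03 and 0.68 for WT + PSY1 against WT.

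The WT array of slide 3 was low for the family as a whole. Replicate 3 of WT was below both other WT arrays in 21 of 30 XTH genes, where 44.1% of all loci were, and it lay more than 0.5 below their mean in 15 of 30, where 16.2% of all loci did. The median deviation was -0.50 for the XTH genes and 0.01 for all loci. Genes with deviations beyond -1 in WT were XTH12 (-2.35, not measured above background on every WT array), XTH15 (-1.31), XTH22 (-1.26), XTH18 (-1.19), XTH14 (-1.18), XTH30 (-1.17), XTH5 (-1.17) and XTH23 (-1.14). XTH31, XTH32 and XTH13 deviated upwards, by 0.74, 0.48 and 0.84. In psy1r the deviations of replicate 3 went both ways, with 14 genes below and 14 above both other arrays. XTH14 and XTH5 deviated there by -2.19 and -1.56, XTH26 was not above background on replicate 3, and XTH13, XTH9 and XTH16 deviated upwards by 1.08, 0.96 and 0.93. Across the 30 genes the deviations in psy1r and in WT had a Pearson r of 0.55, and across all loci of 0.39; both deviations come from arrays of slide 3, and genes are not independent replicates. In WT + PSY1 the median deviation was 0.03, and the root marker sum of its slide 3 array, 1.33, was the highest of that group. How far roots, root hairs or seed tissue account for the deviations was not tested.

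**Figure D4:**
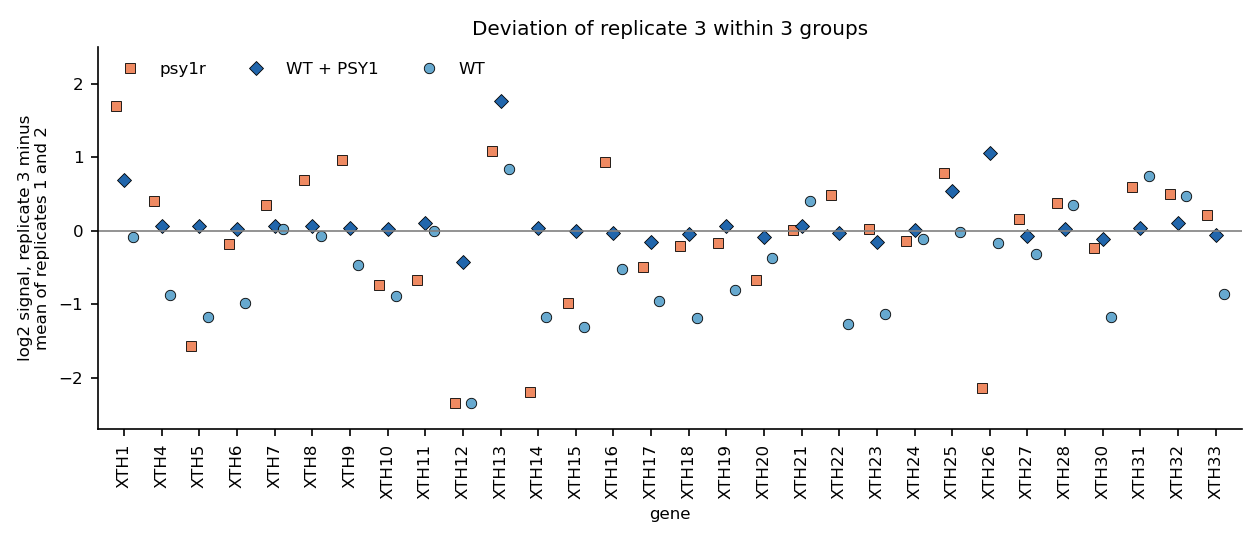
Log2 signal of replicate 3 minus the mean of replicates 1 and 2 (vertical axis) for each tested XTH gene in psy1r (squares), WT + PSY1 (diamonds) and WT (circles). Most WT + PSY1 symbols lie at 0, whereas WT is lower than -1 in 8 genes and psy1r lies far from 0 in both directions.

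Leaving out slide 3 gave 2 arrays each of psy1r, WT + PSY1 and WT and 1 of psy1r + PSY1, whose spread is then taken from the other groups. The standard errors shrank to a median of 0.08 over the XTH genes in WT + PSY1 against WT, and 0 genes were called there, while 1.67% of all loci were. The largest differences of genes with an adjusted p below 0.05 were 0.68 for XTH23 (adjusted p = 0.0147), 0.57 for XTH19 (0.00892), 0.55 for XTH18 (0.0143) and 0.45 for XTH24 (0.0203) among those higher in WT + PSY1, and -0.90 for XTH11 (0.0081), -0.65 for XTH31 (0.00973) and -0.57 for XTH10 (0.0151) among those lower. In all, 13 of 30 XTH genes had an adjusted p below 0.05, where 29.9% of all loci did. These p-values rest on replicates 1 and 2, which lay close together in every group that has both, and when they were averaged to 1 sample in each group, 0 probes of the whole array were called in this comparison and the smallest adjusted p of an XTH gene was 0.563.

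The comparison of psy1r with WT asks what loss of the receptor does without added peptide. The XTH median was 0.07, against -0.03 over all loci, with 16 genes higher and 14 lower. Without slide 3 the XTH median turned to -0.20, against -0.05 over all loci, with 12 genes higher and 18 lower. With all slides the arrays did not overlap for 4 genes higher (XTH8, XTH17, XTH18 and XTH24) and 4 lower (XTH11, XTH15, XTH21 and XTH26). Of all loci, 10.4% and 12.1% were apart. On every slide 11 XTH genes were higher and 7 lower, where 19.9% and 23.9% of all loci were. XTH15 had the lowest value relative to WT. XTH15 (AT4G14130, also known as XTR7) is expressed in growing shoots and is known to be induced in shade.

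XTH15 had values of 1.37, 1.45 and 0.42 in psy1r, against 2.93, 2.93 and 1.62 in WT. All psy1r arrays lay below all WT arrays, and on slides 1, 2 and 3 the difference was -1.55, -1.48 and -1.19. The fit gave -1.41 ± 0.38 (SE, n = 3 and 3), a 2.65-fold lower level, with an adjusted p of 0.118 that misses the threshold. The second XTH15 probe differed by -1.29. Without slide 3 the difference was -1.52 with an adjusted p of 0.00162 and passed as called, at a background of 5.55% of all loci. The same gene was called without WT replicate 3 alone (-1.84, adjusted p = 0.0163) and with array weights (-1.51, adjusted p = 6.91e-05). No XTH gene was called in 22 of 26 alternatives, and with replicates 1 and 2 averaged 0 probes of the whole array were called and the smallest adjusted p of an XTH gene was 0.849.

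XTH9 (AT4G03210), which is expressed in the shoot apex and young organs, resembled XTH15 on 2 slides only. It had values of 2.77, 2.91 and 3.80 in psy1r, against 3.78, 3.80 and 3.32 in WT. Replicates 1 and 2 of psy1r were about 1 log2 unit below those of WT and replicate 3 was above it, which left a difference of -0.48 ± 0.29 (adjusted p = 0.451). Without slide 3 it was -0.95 (adjusted p = 0.00246), just under 2-fold. XTH4 and XTH16 turned in the same way, with -0.57, -0.51 and 0.74 for XTH4 and -0.43, -0.67 and 0.91 for XTH16 on slides 1, 2 and 3. The second XTH4 probe showed no turn of this size, with -0.13, 0.04 and 0.05 on the same slides. XTH26 and XTH14 (AT4G25820), both known from root hairs, had differences of -1.23 ± 0.73 (adjusted p = 0.443) and -0.61 ± 0.57 (adjusted p = 0.645), and both had their lowest psy1r value on replicate 3, at -6.77 and -3.51, the array with the lowest root marker sum. XTH10 (AT2G14620) was at -0.60 ± 0.28 (adjusted p = 0.332), lower on each slide.

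The 4 related root genes XTH17 (AT1G65310), XTH18, XTH19 and XTH20 (AT5G48070) all had positive differences in psy1r against WT. The 6 root markers were all on the lower side in psy1r, with a median of -0.69 and 0 called, and their part in the values of these genes was not tested. XTH17 had values of -1.55, -1.98 and -2.26 in psy1r, against -2.27, -2.57 and -3.37 in WT, a difference of 0.81 ± 0.30 (adjusted p = 0.228). XTH20 had values of -0.45, -0.56 and -1.18 in psy1r, against -1.06, -1.22 and -1.51 in WT, a difference of 0.53 ± 0.27 (adjusted p = 0.378). In XTH17 the 3 mutant arrays lay just above the 3 WT arrays, and in XTH20 replicate 3 of psy1r fell among the WT arrays, while both genes were higher in psy1r on each slide. XTH18 was at 0.67 ± 0.29 (adjusted p = 0.299) and XTH19 at 0.32 ± 0.21 (adjusted p = 0.491), and most of both came from slide 3, where the differences were 1.32 and 0.75. Other genes among the 5 highest were XTH23 at 0.53 ± 0.28 and XTH28 at 0.32 ± 0.16. XTH22, with a difference of 0.27 ± 0.35, was lower in psy1r on slides 1 and 2 (-0.34 and -0.28) and higher on slide 3 (1.44). XTH31 was at 0.12 ± 0.24 and XTH24 at 0.22 ± 0.11, where the other 4 XTH24 probes ranged from 0.04 to 0.64.

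The comparison of psy1r + PSY1 with WT + PSY1 asks how the genotypes differ in the presence of the peptide. It shares no array with psy1r against WT, and replicate 2 is missing from its mutant arm. The XTH median was -0.18, with 12 genes higher and 18 lower. The arrays did not overlap for 6 genes higher and 14 lower in psy1r + PSY1, where 23.3% and 26% of all loci were apart.

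XTH15 was again the lowest of the genes. It had values of 1.37 and 1.43 in psy1r + PSY1, against 3.00, 3.17 and 3.08 in WT + PSY1. Both mutant arrays were thus more than 1.5 log2 units below all wild type arrays, on slide 3 as on slide 1. The difference was -1.68 ± 0.42 (SE, n = 2 and 3), a 3.21-fold lower level, with an adjusted p of 0.0812. The second probe gave -0.93. In 6 of 26 alternative settings XTH15 was called, and its difference ran from -1.73 to -1.30. Many of these settings change only the test, the filter, the call rule or arrays of other groups. They leave the difference as it is, so its constant sign there was fixed in advance. With replicates 1 and 2 averaged the smallest adjusted p of an XTH gene was 0.41.

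In the XTH27 to XTH33 subgroup, 4 of 6 genes had higher values in psy1r + PSY1 with the arrays apart, where 23.3% of all loci had. Of these genes XTH33, which encodes a membrane-anchored member, had the smallest difference (0.10 ± 0.24). In XTH1 to XTH11 the arrays were apart for 6 of 9 genes lower and 1 higher. In XTH12 to XTH26 they were apart for 8 of 15 lower and 1 higher, where 26% of all loci were lower. XTH28 had values of 0.62 and 0.89 in psy1r + PSY1, against 0.17, -0.01 and 0.09 in WT + PSY1, a difference of 0.67 ± 0.17 (adjusted p = 0.0883). XTH31 had values of 3.20 and 3.53 in psy1r + PSY1, against 2.47, 2.53 and 2.54 in WT + PSY1, a difference of 0.85 ± 0.27 (adjusted p = 0.131). XTH32 (AT2G36870), a close relative of XTH31, had values of -1.60 and -1.55 in psy1r + PSY1, against -2.20, -2.31 and -2.16 in WT + PSY1, a difference of 0.65 ± 0.21 (adjusted p = 0.135). XTH11 likewise had -3.25 and -3.14 in psy1r + PSY1, against -3.85, -3.99 and -3.82 in WT + PSY1 (0.69 ± 0.20, adjusted p = 0.108). Among the other genes at the ends of the order, XTH25 (AT5G57550) was at 0.92 ± 0.47, XTH20 at 0.77 ± 0.31 and XTH21 (AT2G18800), known from root growth, at 0.76 ± 0.43. All 3 had their highest value on replicate 3 of psy1r + PSY1, the array with the high seed marker sum, and the part of seed tissue in them was not tested. XTH14 was at -0.90 ± 0.64 and XTH9 at -0.67 ± 0.32. For XTH1 and XTH12 no fold is given, since no psy1r + PSY1 array was well above background.

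XTH22 had values of 3.30 and 4.13 in psy1r + PSY1, against 4.37, 4.34 and 4.33 in WT + PSY1. Both mutant arrays were lower, replicate 1 by more than 1 log2 unit and replicate 3 by 0.20, and the fit gave -0.64 ± 0.40 (adjusted p = 0.405). Without slide 3 XTH22 was called at -1.06 (adjusted p = 0.00317), together with XTH15 at -1.71 (adjusted p = 0.00316), where 5.8% of all loci were called. Without slide 3, 1 gene was called in psy1r + PSY1 against psy1r (XTH12, below background in both psy1r + PSY1 arrays) and 0 in the interaction, where 2.52% and 2.71% of all loci were. XTH19 was at -0.51 ± 0.24, XTH24 at -0.26 ± 0.12 and XTH18 at -0.17 ± 0.33 in psy1r + PSY1 against WT + PSY1. The 5 XTH24 probes did not share one sign there and ranged from -0.37 to 0.24.

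In psy1r + PSY1 against psy1r, which asks whether the peptide acts without its receptor, the XTH median was 0.05, with 22 genes higher and 8 lower. Without slide 3 the counts turned to 13 higher and 17 lower, with a median of -0.04. XTH24, XTH19 and XTH18 were at 0.00, 0.03 and 0.09, with 95% confidence intervals from -0.27 to 0.27, from -0.51 to 0.57 and from -0.65 to 0.83. The groups did not overlap for 3 genes, all higher in psy1r + PSY1, and 0 were lower, where 7.51% and 7.15% of all loci were apart. The 3 genes were XTH6 at 0.19 ± 0.27, XTH32 at 0.40 ± 0.21 and XTH25 at 1.21 ± 0.47.

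XTH25 had values of -3.65 and -2.46 in psy1r + PSY1, against -4.87, -4.18 and -3.74 in psy1r. The 2 treated arrays were the highest, by 1.22 and 1.28 on slides 1 and 3, and the adjusted p was 0.792. XTH25 also differed between slides in the other groups, with replicate 1 the lowest in psy1r, in WT + PSY1 and in WT. XTH21 had values of -4.95 and -3.10 in psy1r + PSY1, against -4.86, -4.97 and -4.90 in psy1r, and XTH26 had -5.50 and -3.56 in psy1r + PSY1, against -4.98, -4.27 and -6.77 in psy1r. The difference of XTH21 was 0.89 ± 0.43 (adjusted p = 0.966), and -0.03 without replicate 3 of psy1r + PSY1, the array with the high seed marker sum. The difference of XTH26 was 0.81 ± 0.82, -0.16 without that array and 0.10 without replicate 3 of psy1r, on which XTH26 was not above background. The part of seed tissue was not tested. XTH15 was at 0.32 ± 0.42, with no difference on slide 1 and 1.01 on slide 3. On the lower side XTH14, XTH7, XTH5 and XTH22 were at -0.31 ± 0.64, -0.24 ± 0.14, -0.22 ± 0.51 and -0.18 ± 0.40.

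The interaction takes the PSY1 response of psy1r minus that of WT, and no XTH gene passed. XTH11 had the smallest adjusted p, 0.247, with 1.09 ± 0.26. Its response was 0.22 in psy1r and -0.86 in WT, and among the mutant arrays replicate 3 of psy1r, at -3.87, lay among the WT + PSY1 values. XTH32 and XTH31 were at 0.66 ± 0.28 and 0.72 ± 0.36 (adjusted p = 0.429 and 0.492). Among genes with positive differences in WT + PSY1 against WT, negative interactions were found for XTH23 at -0.95 ± 0.42, XTH22 at -0.91 ± 0.53, XTH18 at -0.83 ± 0.44, XTH19 at -0.83 ± 0.32 and XTH24 at -0.49 ± 0.16, with adjusted p from 0.337 to 0.553. Both quantities contain the same WT and WT + PSY1 arrays. XTH26, XTH21 and XTH25 were at 1.40 ± 1.10, 1.16 ± 0.58 and 0.88 ± 0.63. XTH1 and XTH12 had negative fitted values, for which no size is given because no psy1r + PSY1 array measured them above background.

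By subgroup, XTH1 to XTH11 (9 tested) had medians of -0.31 in psy1r + PSY1 against WT + PSY1, 0.02 in psy1r + PSY1 against psy1r, -0.29 in psy1r against WT and 0.08 in WT + PSY1 against WT. XTH12 to XTH26 (15 tested) had -0.26, 0.09, 0.22 and 0.47 in the same order, and XTH27 to XTH33 (6 tested) had 0.37, 0.04, 0.05 and -0.22. The 8 root genes XTH12, XTH13, XTH14, XTH17, XTH18, XTH19, XTH20 and XTH26 had 0.00, 0.07, 0.32 and 0.30. The signs of the subgroups thus differed in WT + PSY1 against WT, with XTH27 to XTH33 below 0 and XTH12 to XTH26 above it, and 0 genes of any subgroup were called. Without slide 3 the medians in that comparison were -0.06 for XTH1 to XTH11, 0.14 for XTH12 to XTH26, -0.20 for XTH27 to XTH33 and -0.11 for the root genes. The signs of XTH1 to XTH11 and of the root genes thus turned. In psy1r + PSY1 against psy1r all 4 medians turned, to -0.10, -0.03, -0.03 and -0.27 in the same order. The median of XTH27 to XTH33 in psy1r against WT turned to -0.09, and that of the root genes in psy1r + PSY1 against WT + PSY1 went to -0.17. Chromosomal neighbours did not share one pattern throughout. XTH14 lies next to XTH23 and had a difference of -0.02 ± 0.57 in WT + PSY1 against WT, and XTH12, XTH13 and XTH25, next to XTH22, had 0.47 ± 0.80, 0.20 ± 0.67 and 0.33 ± 0.42. XTH12 was not above background on every WT array, so its size is uncertain. Without slide 3 the differences of XTH12, XTH13 and XTH25 were -0.17, -0.11 and 0.14. The XTH13 arrays spread from -5.47 to -2.88 within WT + PSY1 alone, and its 95% confidence interval in this comparison ran from -1.33 to 1.73.

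The genes that make and degrade xyloglucan gave a similar picture, with 0 of 15 synthesis genes and 0 of 6 breakdown genes called in each comparison. In WT + PSY1 against WT, 3 synthesis genes were higher and 1 lower, and 2 breakdown genes higher and 0 lower, at an unadjusted p below 0.05, where 11.6% and 10.7% of all loci were. The smallest adjusted p was that of XXT3, a xylosyltransferase, which had values of -2.46, -2.55 and -2.41 in WT + PSY1, against -3.08, -3.12 and -3.56 in WT, a difference of 0.77 (adjusted p = 0.058). Among the breakdown genes, FUC95A, a fucosidase that acts on xyloglucan, had 2.44, 2.36 and 2.47 in WT + PSY1, against 1.97, 2.04 and 1.38 in WT, a difference of 0.63 (adjusted p = 0.107). The treated arrays of both genes lay above all untreated arrays, and replicate 3 was the lowest WT array in both, as it was in most XTH genes. In psy1r against WT, 3 synthesis genes and 1 breakdown gene were higher at an unadjusted p below 0.05 and 0 were lower, where 7.73% and 9.77% of all loci were.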

How the data were processed

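The authors deposited one Agilent Feature Extraction 10.7.3.1 file per array with the processed intensity of each spot, background-subtracted and not normalized between arrays, and a table of processed log2 values, each row centred on a median of 0. The deposited log2 table matched the processed intensity scaled by the 75th percentile of each array (r of at least 0.9999 on each array). That scaling is the main setting here; RMA, named in the methods, is an alternative. Control spots and outlier spots were left out and spots of a probe were averaged, giving 43603 probes, of which 36364 were well above background on at least 2 of 11 arrays and were tested. Probes were matched to loci by RefSeq transcript (TAIR10.1), and the probe with the highest mean stands for a locus. limma 3.58.1 in R 4.3.3 fitted the 4 groups, with Benjamini-Hochberg adjustment over all tested probes; the code was tested on simulated data. Named genes are PSY1R, the 5 highest and 5 lowest XTH genes of each comparison, any XTH gene called, and XTH18, XTH19, XTH22, XTH24 and XTH31; other genes named were chosen after their values were seen. The members and gene lists were chosen with earlier results of these data known. The alternatives were RMA, normexp with offset 50, the deposited table, 2 filters on dim probes, a block for the slide, fits of only the compared groups, weighted arrays, the same fit without moderation (the methods name a one-way ANOVA), 2 other call rules, probe means, averaged replicates and each array left out. Leaving out slide 3 and averaging all close arrays were added after seeing the data. Same-numbered arrays share a slide and each group has its own position on it, so that position and group cannot be told apart. No sequences or coordinates were used, and the planned motif counts were not run.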

Additional observations from a re-analysis of the deposited data

How the results depend on the processing

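With 0 XTH genes called in each comparison, most alternatives also gave 0: 25 of 26 for WT + PSY1 against WT, 22 of 26 for psy1r against WT, 23 of 26 for psy1r + PSY1 against psy1r, 19 of 26 for psy1r + PSY1 against WT + PSY1 and 23 of 25 for the interaction. With unadjusted p, the counts were 1 in psy1r + PSY1 against WT + PSY1 (XTH15), 1 in psy1r + PSY1 against psy1r (XTH25), 1 in psy1r against WT (XTH15), 2 in WT + PSY1 against WT (XTH1 and XTH23) and 1 in the interaction (XTH11). In psy1r + PSY1 against WT + PSY1, normexp gave 1, only the groups compared gave 1 (both XTH15) and slide 3 left out gave 2 (XTH15 and XTH22). In psy1r against WT, array weights gave 1 and slide 3 left out gave 1, both XTH15. In psy1r + PSY1 against psy1r, slide 3 left out gave 1 (XTH12). Leaving out each array in turn gave 0 to 0 genes for WT + PSY1 against WT and 0 to 1 for each other comparison: XTH15 without WT replicate 3 (both psy1r comparisons with wild type) or without psy1r replicate 3 (psy1r + PSY1 against WT + PSY1), and XTH21 without psy1r + PSY1 replicate 1, where that group is 1 array. The cause was not tested. The replicate block (slide) gave 0 XTH genes in all 5 comparisons. Deviations from the group means correlated between same-numbered arrays from -0.15 to 0.50, and over 0.1 in 11 of 15 pairs. Most of these pairs thus shared part of their deviations. The main fit has no slide term, so its calls are to be read beside those with the block. Over all probes the calls in WT + PSY1 against WT were 74 in the main setting, 20 with RMA, 0 with the block and 0 with replicates 1 and 2 averaged; in psy1r + PSY1 against WT + PSY1 they were 382, 864, 119 and 7, and in psy1r against WT 270, 222, 224 and 0. Of the 65 gene differences named by rule, 39 of 1668 alternative values changed sign. Many of these alternatives change only the test, the filter, the call rule or arrays of other groups. They cannot change the sign, so this share does not measure how stable the differences are. Groups of 2 or 3 arrays limit all these results.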
